A study of Mus musculus with 8 samples.

Results

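The 8 genes described here encode the core of mitochondrial iron-sulfur cluster assembly: Nfs1, Lyrm4, Iscu, Hscb, Glrx5, Isca1, Isca2 and Nfu1. They were found by gene name among the 49315 genes listed in each deposited file, each name matched 1 row, and all 8 passed the filter on low values that left 14272 genes to test. The cells were immortalized mouse embryonic fibroblasts, profiled by RNA sequencing. There were 4 libraries of Opa1-/- cells, called knockout-labelled here, and 4 of Opa1-/- cells to which OPA1 had been returned, called reconstituted. OPA1 fuses mitochondrial inner membranes and shapes cristae, and the study asked what its loss does to the transcriptome, with ferroptosis genes as the stated subject. Both groups thus share the Opa1-/- background and received no treatment. How OPA1 was put back, and whether the libraries came from separate clones or cultures, is not stated in the labels. The p-values below therefore reflect only how far these libraries scatter, and that scatter may be technical.

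Iron-sulfur clusters are cofactors of iron and sulfide that carry electrons or hold substrates in respiratory complexes, aconitase, lipoyl synthase and several DNA repair enzymes. In mitochondria the cysteine desulfurase NFS1, held stable by LYRM4 and the acyl carrier protein, supplies sulfur to the scaffold ISCU. The co-chaperone HSCB and the chaperone HSPA9 release the new cluster, GLRX5 passes it on, ISCA1 and ISCA2 take part in making the cubane form, and NFU1 hands that form to selected targets such as lipoyl synthase. Cells short of clusters take up more iron. Iron also takes part in ferroptosis, the iron-dependent death by lipid peroxidation.

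All values are in TPM (transcripts per 1000000, corrected for gene length) after scaling of libraries, and differences are knockout-labelled minus reconstituted on the log2(scaled TPM + 1) scale, which makes changes of low genes look smaller. Means are given ± SD with n = 4 libraries per group. A gene was called at an adjusted p below 0.05 in limma-trend with Benjamini-Hochberg adjustment over the 14272 genes tested. Reads recovered from the TPM steps came to 52.9 M to 57.8 M per library (M, 1000000 reads), and the members rested on 237 (Hscb) to 23011 (Glrx5) reads in a library, so counting error was largest for Hscb. For Opa1 itself, knockout-labelled libraries 1 to 4 held 14.8, 14.7, 13.7 and 12.5 TPM, and reconstituted libraries 1 to 4 held 15.6, 14.6, 14.6 and 14.5 TPM. Its total therefore does not check the labels. All 8 fibroblast markers were present (summed level 2686 to 2985 TPM in knockout-labelled and 3127 to 3197 TPM in reconstituted libraries). Of the 8, 4 fell (Col1a1, Col1a2, Pdgfrb and S100a4) and 1 rose (Col3a1). The 3 endothelial and 3 skeletal muscle markers were under 1 TPM in every library, as were 3 of 4 blood and 2 of 3 neural markers. The third neural marker, Tubb3, was at 12.3 ± 1.12 against 19.3 ± 1.45 TPM (-0.61, adjusted p = 0.000413). Epithelial markers summed to 175 to 212 against 144 to 207 TPM. Most of that sum was Krt18, at 170 ± 16.2 against 165 ± 29.4 TPM and not called. Cdh1 (12.9 against 8.10 TPM) and Krt8 (4.60 against 2.21 TPM) were higher in knockout-labelled libraries, and Epcam was under 1 TPM in every library. Their part in the results was not tested. In bulk RNA, fewer cells of a kind and less RNA per cell cannot be told apart.

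Of the 8 assembly genes, 4 rose in the knockout-labelled libraries (Hscb, Iscu, Nfs1 and Nfu1), 1 fell (Glrx5) and 3 did not pass (Lyrm4, Isca1 and Isca2). Over all genes tested, 16.2% were called higher and 16.9% lower, 33.0% in all. Hscb stood out in size, at 1.68-fold, while Iscu and Nfs1 were at 1.23-fold and 1.24-fold and Nfu1 at 1.12-fold. The median difference over the 8 was 0.15, against -0.00 for all genes tested. The groups did not overlap for 5 of the 8, the same 5 that were called, beside 36.2% of all genes tested (17.2% with the knockout-labelled libraries above and 19.0% with them below).

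Short stretches before the members' RefSeq start sites are shown first, for the member that fell and for the members with an ETS core. Windows that share only other motifs are not printed. RefSeq windows (GRCm38.p6) were matched for 6 of the 8 members. Hscb and Iscu had no window and were not searched. By GENCODE M21 these windows are not all plain upstream sequence: exons of some gene cover all 250 bases for Nfs1 and Lyrm4, 152 for Isca2, 144 for Isca1, 86 for Nfu1 and 0 for Glrx5, and the window of Nfu1 lies inside the annotated gene. The 250 bases before each RefSeq start were searched on both strands for CCAAT, for the ETS core CTTCCGG, for the GC box GGGCGG, for the C/EBP-ATF element TGATGCAA and for the AP-1 site TGACTCA. Glrx5, the member that fell, held CCAAT or its complement 4 times, and 0.842% of the 32536 distinct windows held it 4 times or more. CCAAT was also in the windows of Isca1 and Isca2 (2 times each) and Nfu1 (1 time), so in 4 of the 6 windows, beside 33.8% of all windows. The window of Glrx5, chr12:105032368-105032617 on the plus strand, is printed 5′ to 3′ with those matches in capitals.
Glrx5: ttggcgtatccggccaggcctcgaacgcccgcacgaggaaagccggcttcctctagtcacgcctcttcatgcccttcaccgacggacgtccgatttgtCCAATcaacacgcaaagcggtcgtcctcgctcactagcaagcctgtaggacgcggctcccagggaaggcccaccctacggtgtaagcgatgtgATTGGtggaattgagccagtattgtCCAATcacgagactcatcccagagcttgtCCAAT

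The ETS core was found in 3 of the 6 windows and in 6.95% of all windows. The 30 bases around each match are given on the gene's own strand, with the core or its complement in capitals. They lie at chr2:156144187-156144216 (Nfs1, minus strand), chr13:59769988-59770017 (Isca1, minus strand) and chr12:84773229-84773258 (Isca2, plus strand).
Nfs1: cggtccgtgggatcgCTTCCGGagcacagc
Isca1: gccgtgtccccaCTTCCGGggggtctgtcg
Isca2: ttctcccctcctCCGGAAGcccaggctagg

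Of these 3 genes, Nfs1 was called higher while Isca1 and Isca2 were not called. The C/EBP-ATF element, the target of the stress factor ATF4, was in none of the 6 (0.762% of all windows), and neither was the AP-1 site (4.45%). Of the members that rose, only Nfs1 and Nfu1 were among these 6, so nothing is known here for Hscb and Iscu. GC boxes were in the windows of Isca2, Lyrm4 and Nfu1, 3 in each, and in 33.0% of all windows. A match is a description of letters and not of a bound factor.

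The sulfur donor came first in the pathway. Nfs1 (ENSMUSG00000027618; GRCm38 chromosome 2, 156123639 to 156144186, minus strand, protein-coding), the cysteine desulfurase, read 26.7, 27.4, 24.8 and 23.6 TPM across knockout-labelled libraries 1 to 4. In reconstituted libraries 1 to 4 it was at 20.7, 21.4, 21.1 and 19.5 TPM. Every knockout-labelled library was above every reconstituted one. The means were 25.6 ± 1.72 and 20.7 ± 0.823 TPM, a difference of 0.29 (SE 0.06, adjusted p = 0.00411). Exons of Nfs1 share 148 bases with Romo1 on the opposite strand and 256 bases with Gm28036 on the same strand, out of 3612. Since the strand setting of the counting is not given, reads there cannot be assigned with certainty.

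Lyrm4 (chromosome 13, 35978395 to 36117526, minus strand), the small LYR protein that stabilises the desulfurase, did not pass. Its values were 26.3, 30.4, 25.6 and 33.2 TPM in knockout-labelled libraries and 28.2, 25.9, 25.6 and 24.1 TPM in reconstituted ones. The groups overlapped, with knockout-labelled libraries 2 and 4 high and libraries 1 and 3 within the reconstituted range. The difference was 0.14 with a 95% confidence interval of -0.05 to 0.34 (limma-trend, adjusted p = 0.234). Without knockout-labelled library 4 it was 0.079. Exons of Lyrm4 share 115 of 2086 bases with Fars2 on the opposite strand, so reads there are uncertain as for Nfs1.

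Iscu (ENSMUSG00000025825; chromosome 5, 113772748 to 113778288, plus strand, protein-coding), the scaffold on which the cluster is built, gave 73.5, 79.8, 66.0 and 78.7 TPM across the knockout-labelled libraries. It was at 61.5, 62.9, 58.2 and 59.3 TPM in the reconstituted ones. The groups did not overlap, and knockout-labelled library 3 was the nearest to the reconstituted range. The difference was 0.29 (SE 0.06, adjusted p = 0.00625), from 60.5 ± 2.12 to 74.5 ± 6.28 TPM. It kept its direction and its call in every refit across genes that was tried.

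Hscb (ENSMUSG00000043510; chromosome 5, 110829070 to 110839777, minus strand, protein-coding), the J-domain co-chaperone that brings the loaded scaffold to HSPA9, showed the largest difference of the 8. Knockout-labelled libraries 1 to 4 were at 23.9, 25.9, 26.3 and 28.7 TPM and reconstituted libraries 1 to 4 at 15.5, 14.1, 15.3 and 17.5 TPM. The lowest knockout-labelled library was well clear of the highest reconstituted one. It rose by 0.71 (SE 0.07, interval 0.55 to 0.88, adjusted p = 0.000180) and ranked 311 from the top among the 14272 genes tested. Without any 1 library it stayed between 0.67 and 0.77.

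Glrx5 (ENSMUSG00000021102; chromosome 12, 105032688 to 105042906, plus strand, protein-coding), the monothiol glutaredoxin that carries the cluster onward, was the only member that fell. It read 290, 300, 267 and 235 TPM across knockout-labelled libraries and at 319, 337, 306 and 323 TPM in reconstituted ones. The groups did not overlap, and knockout-labelled library 4 was the lowest of all. The difference was -0.24 (SE 0.07, adjusted p = 0.0332), from 321 ± 12.8 to 273 ± 28.8 TPM. The call was not firm. It was lost without knockout-labelled library 3 (adjusted p = 0.0677) or reconstituted library 1, 2 or 4 (0.0652, 0.0832 and 0.0729), and on the deposited TPM (0.0507). Without knockout-labelled library 4 the difference was -0.17 (adjusted p = 0.0266). The median over 321 well-expressed genes of chromosome 12 was -0.10, and after subtracting chromosome medians Glrx5 was at -0.13 (adjusted p = 0.156).

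Isca1 and Isca2, which act as a pair in building the cubane cluster, did not pass. Isca1 (chromosome 13, 59755409 to 59769810, minus strand) read 24.0, 24.7, 25.7 and 21.3 TPM across knockout-labelled libraries and 22.8, 24.1, 24.9 and 24.5 TPM in reconstituted ones. The groups overlapped, with knockout-labelled library 3 the highest and library 4 the lowest of all 8. The difference was -0.01 with an interval of -0.15 to 0.13 (limma-trend, adjusted p = 0.917). Exons of Isca1 share 314 of 10680 bases with Etohd2 on the opposite strand and 115 with Gm49354 on the same strand, so reads there are uncertain too. Isca2 (chromosome 12, 84773251 to 84775088, plus strand) was at 62.7, 59.3, 55.8 and 65.3 TPM against 57.5, 57.1, 51.9 and 53.1 TPM. Of the knockout-labelled libraries, only library 3 was within the reconstituted range. The difference was 0.14 (interval 0.01 to 0.27, adjusted p = 0.0883). It passed without knockout-labelled library 3 (0.19, adjusted p = 0.0315) and with chromosome medians removed (0.25, adjusted p = 0.0244). Isca2 also lies on chromosome 12.

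Nfu1 (ENSMUSG00000029993; chromosome 6, 87009236 to 87028461, plus strand, protein-coding), the late carrier that serves lipoyl synthase, rose by a small amount. Its values were 28.7, 30.7, 30.8 and 32.2 TPM in knockout-labelled libraries and 26.1, 27.8, 27.0 and 28.5 TPM in reconstituted ones. The groups did not overlap, but the lowest knockout-labelled and the highest reconstituted library nearly touched. The difference was 0.16 (SE 0.05, adjusted p = 0.0325). It did not pass without knockout-labelled library 2 or 3 (adjusted p = 0.0635 and 0.0571) or reconstituted library 1, 2 or 3 (0.0956, 0.0642 and 0.0876), nor on the deposited TPM (0.118).

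**Figure D1:**
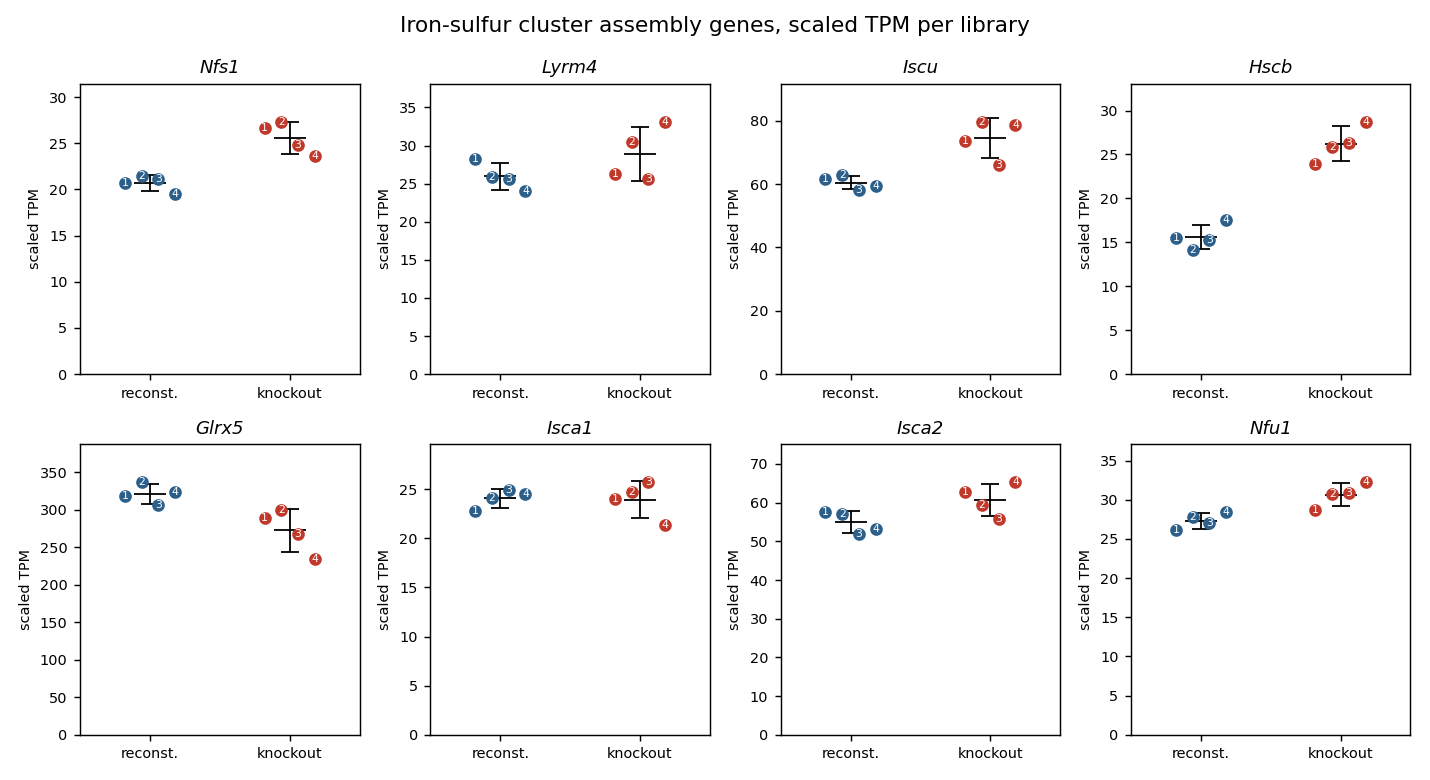
Scaled TPM (vertical axis, from 0) of the 8 assembly genes in reconstituted (blue) and knockout-labelled (red) libraries. Numbers are library numbers, and bars are the mean ± SD of 4 libraries. Hscb is at 23.9 to 28.7 TPM in the knockout-labelled libraries and at 14.1 to 17.5 TPM in the reconstituted ones, while the groups of Isca1 overlap.

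By level, Glrx5 was far above the other members at 235 to 337 TPM over the 8 libraries. Iscu (58.2 to 79.8 TPM) and Isca2 (51.9 to 65.3 TPM) followed, with overlapping ranges but with Iscu the higher in all 8 libraries. The other members, Nfu1, Lyrm4, Isca1, Nfs1 and Hscb in the order of their means, lay between 14.1 and 33.2 TPM, and each overlapped its neighbours in that order. The order of levels depends on the length correction in TPM, and exon lengths ran from 905 bases (Hscb) to 10680 bases (Isca1). In recovered reads per library, Isca1 (4438 to 5051) was above Iscu (2384 to 3339). In the reconstituted libraries Hscb was the lowest of the 8 members. The 8 genes together summed to 543 ± 28.6 TPM in knockout-labelled and 550.3 ± 16.3 TPM in reconstituted libraries, with overlapping ranges of 518 to 578 and 530.04 to 570.1 TPM. Without Glrx5 the other 7 summed to 255 to 283 TPM against 224 to 233 TPM. Glrx5 held 45.4% to 52.1% of the summed level in knockout-labelled libraries and 57.7% to 59.1% in the reconstituted ones. Glrx5 was set apart with the values known, as the highest member and the only one called lower. The sum without it and its share therefore restate the calls of single genes and add no separate result.

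Ratios between members within a library do not depend on how libraries are scaled. Their absolute size does depend on the length correction in TPM. The 4 ratios below were chosen with the values known and are given with no test. Hscb per Iscu, the co-chaperone per scaffold, was 0.325, 0.325, 0.398 and 0.365 in knockout-labelled libraries and 0.252, 0.225, 0.263 and 0.295 in reconstituted ones. All knockout-labelled libraries were thus above all reconstituted ones. Glrx5 per Iscu was 3.94, 3.76, 4.05 and 2.99 against 5.18, 5.36, 5.26 and 5.46, with knockout-labelled library 4 the lowest. These groups could not overlap, since Glrx5 was lower and Iscu higher in every knockout-labelled library, so their separation adds no result. Nfs1 per Lyrm4, the desulfurase per stabilising partner, was 0.899 ± 0.133 against 0.800 ± 0.0441, and Isca1 per Isca2 was 0.397 ± 0.0566 against 0.439 ± 0.0379. The groups overlapped in both of these.

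**Figure D2:**
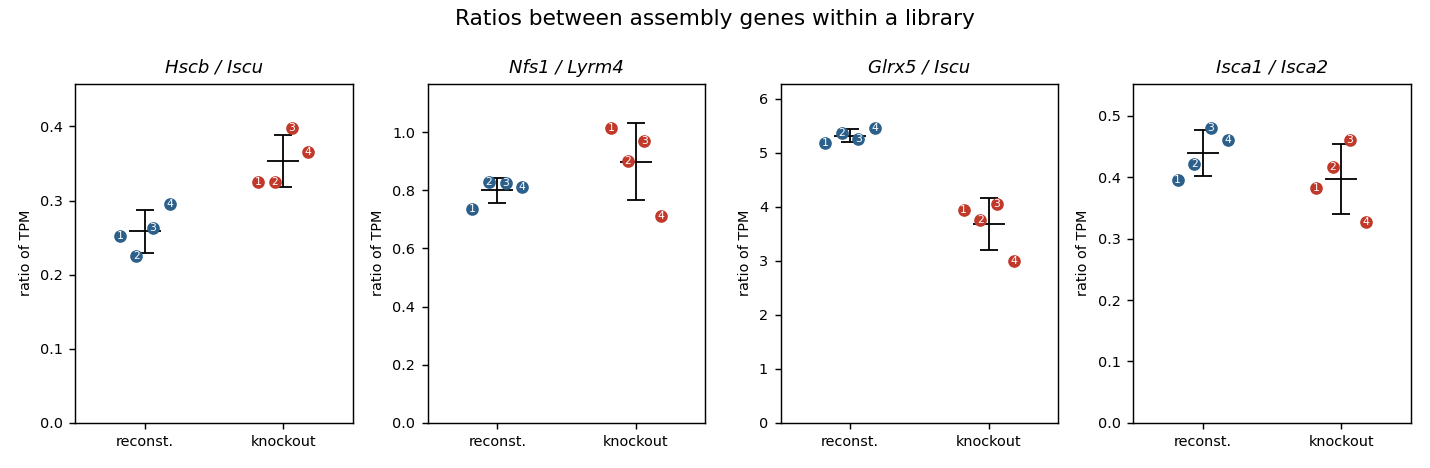
Ratio of TPM (vertical axis, from 0) between 2 assembly genes in the same library, for 4 pairs, in reconstituted (blue) and knockout-labelled (red) libraries. Numbers are library numbers and bars are the mean ± SD of 4 libraries. Glrx5 per Iscu is at 2.99 to 4.05 in knockout-labelled libraries and at 5.18 to 5.46 in reconstituted ones.

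Many of the assembly genes start close to another gene that is read in the other direction. In GENCODE M21, 5 of the 8 (62.5%) had a protein-coding gene on the opposite strand, head to head, whose start lay within 1000 bases, against 17.3% of 11412 protein-coding genes tested. These pairs were looked up after the members' values were known. The starts of Hscb and Chek2 lie 202 bases apart, those of Iscu and Sart3 238 bases and those of Isca2 and Npc2 99 bases. The first bases of Nfs1 and Romo1 and of Lyrm4 and Fars2 overlap. Of the 5 neighbours, 2 were called higher, 1 lower and 2 did not pass, where 33.0% of all genes tested were called. Chek2, a checkpoint kinase, was at 18.7 ± 1.16 against 15.9 ± 0.775 TPM (0.22, adjusted p = 0.0165 in limma-trend), beside Hscb at 0.71. Sart3, a splicing factor, was at 70.3 ± 2.06 against 70.9 ± 1.20 TPM (-0.01, adjusted p = 0.824), beside Iscu at 0.29. Fars2, the mitochondrial phenylalanyl-tRNA synthetase, was at 20.8 ± 0.513 against 16.2 ± 1.49 TPM (0.35, adjusted p = 0.00317), beside Lyrm4, which did not pass. Npc2, a lysosomal cholesterol carrier, was at 146 ± 9.17 against 165 ± 4.18 TPM (-0.18, adjusted p = 0.0232), beside Isca2 at 0.14. Romo1, an inner membrane protein, was at 140 ± 19.5 against 119 ± 13.2 TPM (0.24, adjusted p = 0.130), beside Nfs1 at 0.29. The differences between a member and its neighbour were not tested.

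**Figure D3:**
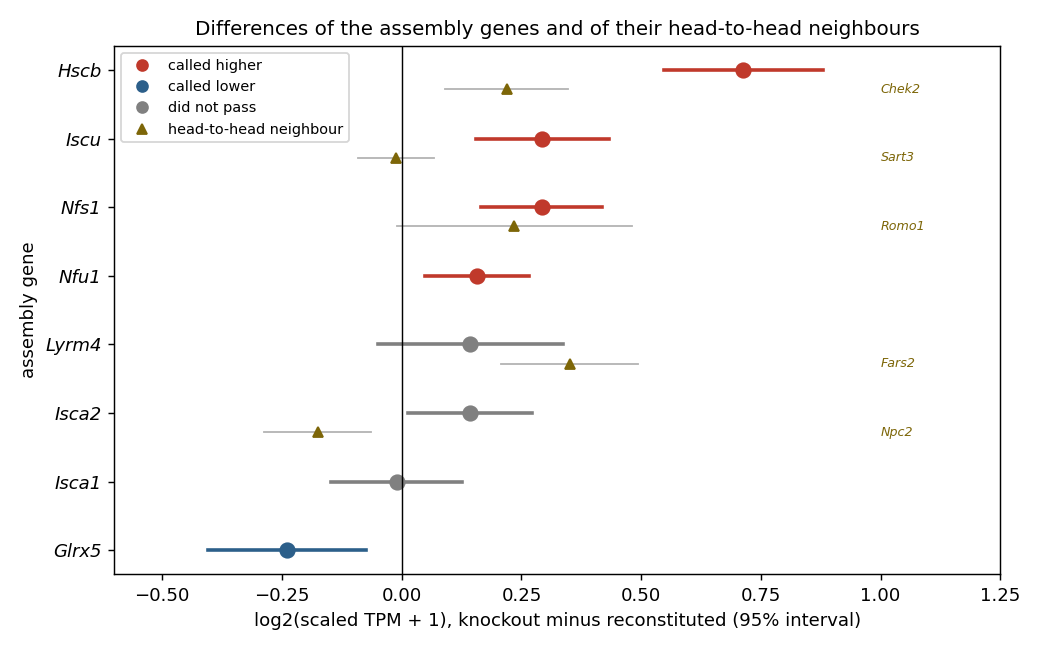
Difference in log2(scaled TPM + 1), knockout-labelled minus reconstituted (horizontal axis), with its 95% confidence interval, for each assembly gene (circles) and for the protein-coding gene that starts head to head with it (triangles, named at the right). Red circles were called higher, the blue one lower and grey ones did not pass. Hscb is at 0.71 and its neighbour Chek2 at 0.22.

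Other genes of mitochondrial assembly moved in both directions. Of 13 partners of the 8 members, 6 were higher (Fdx1, Hspa9, Nubpl, Bola1, Bola3 and Ndufab1), 1 was lower (Abcb10) and 6 did not pass. The median was 0.12, and 53.8% were called, beside 33.0% of all genes tested. Ndufab1, the acyl carrier protein that binds LYRM4, was at 29.95 ± 3.89 against 23.6 ± 0.642 TPM (0.32, adjusted p = 0.0128), but with chromosome medians removed was at 0.22 and did not pass (0.0707). Nubpl, which serves complex I, rose from 4.27 to 5.54 TPM (0.31, adjusted p = 0.0249), but was at 0.0647 with the library number as a block, at 0.0552 on the deposited TPM and at 0.0649 when low genes were not filtered out. Nubpl also did not pass without knockout-labelled library 1 or 2 (0.0617 and 0.0636) or reconstituted library 1, 2 or 3 (0.0553, 0.0686 and 0.0604). Bola1, which acts in late cluster transfer, was at 46.3 ± 6.56 against 37.0 ± 2.93 TPM (0.31, adjusted p = 0.0387), with overlapping groups. It did not pass without knockout-labelled library 2 or 4 (0.0895 and 0.0574) or reconstituted library 1, 3 or 4 (0.0600, 0.105 and 0.0943), with no filter on low values (0.0917) or with no mean-variance trend (0.0541). Abcb10, an inner membrane transporter tied to haem synthesis, fell from 22.4 ± 0.905 to 16.0 ± 1.21 TPM (-0.46, adjusted p = 0.000531) and was at -0.28 with chromosome medians removed, still called (0.00614).

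In the cytosolic pathway, which builds clusters for cytosolic and nuclear proteins, 3 of 11 genes rose (Ciao1, Fam96a and Bola2), 1 fell (Ciapin1) and 7 did not pass, with a median of 0.06. Called genes made up 36.4% of the list, near the 33.0% of all genes tested. Bola2, a partner of the cytosolic glutaredoxin, rose from 28.9 ± 1.84 to 36.3 ± 3.28 TPM (0.32, adjusted p = 0.00853). Ciao1, a targeting subunit, rose from 25.96 ± 0.420 to 30.7 ± 2.45 TPM (0.23, adjusted p = 0.0124). Ciapin1, an early electron carrier of the pathway, fell from 34.2 ± 0.573 to 28.4 ± 1.11 TPM (-0.26, adjusted p = 0.00137). With chromosome medians removed Bola2 was at adjusted p = 0.0527 and Ciapin1 at 0.166. Fam96a, another targeting subunit, rose by 0.13 (adjusted p = 0.0377). It was at 0.0790 with the library number as a block and was lost in 13 of 21 alternatives, among them leaving out knockout-labelled library 1 (0.0829) or reconstituted library 1, 3 or 4 (0.105, 0.0919 and 0.115).

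Proteins that carry the clusters were taken by compartment. Of 15 mitochondrial ones, 6 rose (Ndufs7, Ndufs8, Ndufv1, Lias, Cisd3 and Mocs1) and none fell, with 9 not passing and a median of 0.10. The share called was 40%, beside 33.0% of all genes tested. Cisd3, a matrix cluster protein, rose from 31.9 ± 1.71 to 42.2 ± 6.39 TPM (0.38, adjusted p = 0.0126) and Ndufs8, a complex I subunit, from 237 ± 6.16 to 301 ± 32.9 TPM (0.34, adjusted p = 0.00564). Ndufs7, also of complex I, rose by 0.19 (adjusted p = 0.0148), and Mocs1, of molybdenum cofactor synthesis, by 0.20 (0.00624). Ndufs7 was at 0.0502 without reconstituted library 3 and at 0.0659 with chromosome medians removed, and its difference was 0.095 with length and GC trends removed (0.0402). Mocs1 was at 0.0579 on the deposited TPM. Of 17 cytosolic and nuclear ones tested, 4 fell (Aco1, Abce1, Elp3 and Dph2), 1 rose (Nthl1) and 12 did not pass, with a median of -0.03. Here the share called was 29.4%, near that of all genes tested. The difference between the 2 lists was not tested. Those that fell lie on chromosomes 4 (Aco1 and Dph2), 8 (Abce1) and 14 (Elp3). Medians over the well-expressed genes there were -0.15, -0.18 and -0.17. Abcb10, Ciapin1 and Gcsh, lower in other lists, also lie on chromosome 8 and Dlst on chromosome 12 (median -0.10), where Nubpl was called higher. Beyond removing chromosome medians, the part of position in these calls was not tested.

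Aco1, cytosolic aconitase, which becomes the iron-sensing regulator IRP1 when its cluster is lost, fell from 58.9 ± 1.37 to 42.7 ± 4.03 TPM (-0.46, adjusted p = 0.000713). Abce1, which recycles ribosomes, fell from 186 ± 6.12 to 143 ± 4.06 TPM (-0.37, adjusted p = 0.000164) and Dph2, of diphthamide synthesis, from 26.4 ± 0.886 to 20.53 ± 0.497 TPM (-0.35, adjusted p = 0.000345). All 3 kept their call under every alternative run, but with chromosome medians removed Aco1 was at -0.31, Abce1 at -0.19 and Dph2 at -0.20. Nthl1, a DNA glycosylase, rose by 0.30 (adjusted p = 0.0291) and was at 0.0691, 0.0525 and 0.0655 without reconstituted library 1, 2 and 3. Testing it among all genes, unfiltered, gave 0.0695.

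Lyrm4 belongs to a family of small proteins with a leucine-tyrosine-arginine motif. Of the 9 other members of that family tested, 3 rose and none fell (median 0.17). That is 33.3% called, near the 33.0% of all genes tested. Etfrf1, which acts on the electron transfer flavoprotein, rose from 10.2 ± 0.373 to 14.0 ± 0.556 TPM (0.42, adjusted p = 0.000338). Ndufb9 and Ndufa6, complex I subunits, rose by 0.35 each (adjusted p = 0.00168 and 0.0217), and Ndufa6 did not pass without reconstituted library 1 or 2 (0.0566 and 0.0568) or when low genes were not filtered out (0.0584).

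Lipoylation, which depends on NFU1 and the cluster enzyme LIAS, had 4 of 8 genes higher (Lias, Lipt2, Dlat and Pdhx) and 2 lower (Dlst and Gcsh), with a median of 0.08. In this list 75% were called, beside 33.0% of all genes tested. Lias is in this list and also in that of the mitochondrial iron-sulfur proteins. Lias, lipoyl synthase, rose from 24.6 ± 0.258 to 28.03 ± 0.448 TPM (0.18, adjusted p = 0.00456), and was at 0.0715 on the deposited TPM. Lipt2, which loads the octanoyl precursor, rose from 9.26 ± 0.579 to 13.0 ± 2.07 TPM (0.43, adjusted p = 0.00872). Gcsh, the lipoyl carrier of glycine cleavage, fell from 208 ± 6.48 to 169 ± 10.9 TPM (-0.30, adjusted p = 0.00218), and with chromosome medians removed was at -0.12 (0.140). Dlst, the lipoylated subunit of oxoglutarate dehydrogenase, fell from 208 ± 2.78 to 173 ± 7.40 TPM (-0.26, adjusted p = 0.00105), and with chromosome medians removed was at -0.16, still called (0.00609).

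**Figure D4:**
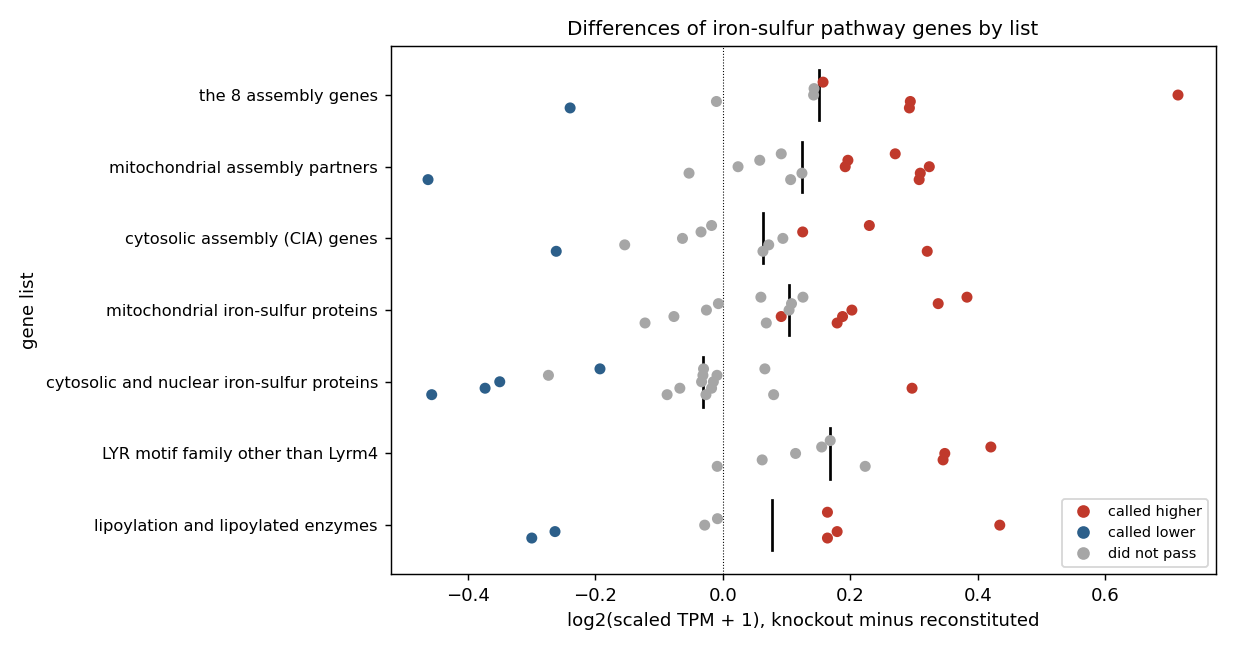
Difference in log2(scaled TPM + 1), knockout-labelled minus reconstituted (horizontal axis), of every tested gene in 7 lists of the iron-sulfur pathway (vertical axis). Red points were called higher, blue lower and grey did not pass, and black bars are list medians. The 8 assembly genes have a median of 0.15, and the cytosolic and nuclear iron-sulfur proteins one of -0.03.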

How the data were processed

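The authors deposited 1 table per library with a TPM value per gene, per the file headers. The submitters' processing notes name STAR 2.5.2b, featureCounts, Subread 1.5.2 and bcl2fastq 2.17, and the builds mm10 and GRCh38 without saying what each was for. Strand setting and annotation are not given in the sources used here. Libraries were grouped by their titles. Positions and exon lengths came from GENCODE M21 (GRCm38), and promoters from RefSeq. Scaling used the trimmed mean of each library's log ratios to the geometric mean library, dropping 30% of ratios and 5% of levels at either end. Genes reaching 1 TPM in 4 or more libraries were kept, and limma-trend (limma 3.58.1, R 4.3.3) was fitted to log2(scaled TPM + 1) over all of them. The procedure was run on simulated libraries drawn independently with 200 changed genes, fewer than were called here. That run checks the code and cannot vouch for scaling or error control in these libraries. Reads were recovered where TPM times exon length stepped in whole multiples (94.6% to 95.1% of values up to 20 reads were whole within 0.05), which estimates depth only as well as the annotation fits.

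Replicate libraries all differed by more than sampling noise (lowest chi-square per degree of freedom 4.72). Knockout-labelled library 4 was the furthest from its replicates, at 43.5, 33.4 and 47.5 against knockout-labelled libraries 1, 2 and 3. Those libraries were at 7.84 to 24.3 among themselves, and the reconstituted ones at 4.72 to 26.0. Libraries with the same number in both groups deviated together (correlations 0.25, 0.22, 0.32 and 0.12 across 9416 genes for numbers 1 to 4), so the number was taken as a pairing seen in the data and fitted as a block in an alternative. Libraries with unlike numbers were at -0.32 to 0.11, so the value for number 4 was barely above the highest of these. The members and the gene lists were chosen with earlier results of these data known. Named genes are all 8 members, Opa1, up to 4 called genes per list with the largest change and any direction held by 1 or 2 called genes. Some genes of the lists are not reported here. Alternatives were other scalings, filters and pseudocounts, limma-voom on recovered reads, chromosome medians or length and GC trends removed, and libraries left out. Leaving out both libraries numbered 4 was added after seeing the data. Python 3.11.15 and matplotlib 3.10.9 did the other steps.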

Additional observations from a re-analysis of the deposited data

Results flagged for a closer look

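In 72 groups of 4 libraries, 5 held a library far from the other 3 by Dixon's ratio of gap to range at its 95% limit. Chance flags about 1 group in 20. Opa1 was at 15.6 TPM in reconstituted library 1 and at 14.5 to 14.6 TPM in the other 3 (ratio 0.969). Knockout-labelled library 4 was the high one in 3 groups. Ndufab1 was at 35.7 TPM there and at 27.6 to 28.8 TPM in libraries 1 to 3 (ratio 0.857). Ciao1 was at 34.3 TPM there and at 29.2 to 29.9 TPM in the others (ratio 0.866). Ndufs8 was at 349.6 TPM there and at 280.3 to 291 TPM in the others (ratio 0.838). The ratio of Nfs1 to Lyrm4 was 0.734 in reconstituted library 1 and 0.811 to 0.827 in the other 3 (Dixon's ratio 0.830). No group of a single assembly gene was flagged.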

How the results depend on the processing

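Hscb, Iscu and Nfs1 kept their direction and call in all 21 refits across genes run for each. In the exact permutation test of each member alone they were at an unadjusted p of 0.0286, as were Glrx5 and Nfu1, the smallest that 4 against 4 allows. Lyrm4 kept its direction and did not pass under any, and was at 0.079 to 0.20 without any 1 library and at 0.044 without both numbered 4. With the replicate number as a block, adjusted p was 0.000720 for Hscb, 0.00667 for Iscu, 0.00533 for Nfs1, 0.0276 for Glrx5 and 0.0233 for Nfu1, and the block changed no member's call. Among genes named from the lists it ended those of Nubpl and Fam96a. Without both libraries numbered 3, Nubpl, Bola1, Nthl1 and Fam96a did not pass, nor did Bola1, Ndufa6 and Fam96a without both numbered 4. Glrx5 did not pass on the deposited TPM, with no filter on low values or with no mean-variance trend (-0.24 in each), with chromosome medians removed (-0.13), or without both libraries numbered 3 (-0.25) or 4 (-0.16), and was at -0.28 to -0.17 without any 1 library. Nfu1 did not pass on the deposited TPM (0.16) or without both libraries numbered 3 (0.15), and was at 0.13 to 0.19 without any 1 library. Isca2 passed with chromosome medians removed (0.25), was at 0.11 to 0.19 without any 1 library and at 0.094 without both numbered 4. Isca1, near 0, changed sign with upper-quartile scaling (0.022), with chromosome medians removed (0.011), with length and GC trends removed (0.076) and without both libraries numbered 4 (0.051), and was at -0.040 to 0.045 without any 1 library. Genes called lower numbered 2408, but 1529 on the deposited TPM and 1593 with chromosome medians removed, and 1801 to 2710 without any 1 library. Pathway list genes called higher numbered 22, with Lias counted 1 time. They numbered 14 on the deposited TPM and 14 to 23 without any 1 library, with 14 without reconstituted library 3. Those called lower numbered 8, but 5 with chromosome medians removed. Apart from the chromosome term itself, the cause was not tested. Precision is limited by 4 libraries per group.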

Other observations

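Genes whose profile over the 8 libraries lay nearest to that of Iscu, by the root mean square difference of centred log2 values among 8477 genes with a mean of 10 TPM or more, were Mrpl46, Rplp1 and Fis1 (0.02, 0.02 and 0.03). Mrpl46, of the mitochondrial ribosome, was at 58.8 ± 4.71 against 48.0 ± 1.47 TPM. Rplp1, of the cytosolic ribosome, was at 9208 ± 764 against 7356 ± 227 TPM, and Fis1, a mitochondrial fission factor, at 169 ± 13.7 against 140 ± 6.36 TPM. Nearest to Hscb were Ccdc90b, Isg20 and Gadd45a (0.08 each). Ccdc90b, a relative of a regulator of the calcium uniporter, was at 36.9 ± 3.05 against 23.1 ± 0.525 TPM. Isg20, an interferon-induced exonuclease, was at 27.6 ± 3.01 against 17.7 ± 0.616 TPM, and Gadd45a, a growth arrest gene, at 29.1 ± 3.36 against 17.1 ± 1.68 TPM. These are likenesses of profile over libraries that share 1 contrast, and nothing about shared control was tested.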
